A study of Homo sapiens with 12 samples.

Results

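FR1 and FR2 are fusion receptors built on hnCD16, a high-affinity and cleavage-resistant form of the Fc receptor CD16a, and they were compared here with each other across the transcriptome. Both carried the hnCD16 ectodomain and transmembrane segment followed by the signalling tails of DAP10 and CD3ζ, and FR1 also carried the cytoplasmic tail of 2B4 (CD244), which FR2 lacked. The labels placed 3 libraries in FR1 and 3 in FR2, so the comparison used 6 of the 12 RNA-seq libraries of the series; the others were 3 of cells with the vector control (CTRL) and 3 of cells with hnCD16 alone. All 4 groups were labelled as YT cells, a human NK-like lymphoid line that lacks endogenous CD16a, and all were infected with a lentiviral vector in which the hEF1A promoter drove the insert and EGFP marked the cells for sorting and expansion. RNA was taken from unstimulated cells, so each value describes resting cells that carry a receptor. The labels do not say whether the 3 libraries of a group came from separate infections or cultures, and the p-values therefore measure the spread between these libraries, which may be technical. A difference between FR1 and FR2 is also a difference between 1 sorted population and another, and the insert and the population cannot be told apart.

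2B4 is a SLAM-family receptor of NK cells that binds CD48. Its tail holds tyrosine motifs (immunoreceptor tyrosine-based switch motifs, ITSMs) that recruit the adaptor SAP, encoded by SH2D1A, and through it the kinase Fyn. DAP10 (HCST) is the adaptor of the receptor NKG2D and recruits PI3 kinase through a YxNM motif, and CD3ζ (CD247) carries the ITAMs that recruit ZAP70 and Syk and that normally serve CD16a and the T cell receptor. In NK cells these routes lead to calcium entry, granule release and the transcription of chemokine and cytokine genes.

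The segment that sets the constructs apart is shown as the reference coding sequence of residues 261 to 360 of the 370-residue CD244 protein, which lie within its last 120 residues. It is taken from GENCODE v44 (gene at chr1:160830160-160862887, minus strand, GRCh38), and the codons of its 4 ITSMs (pattern TxYxxV or TxYxxI) are in capitals. The DAP10 tail that both constructs share is given for the same reason as residues 70 to 93 of the 93-residue HCST protein, with the codons of its YxNM motif in capitals. The inserts' own sequences were not used here and may differ in codons.
2B4 tail: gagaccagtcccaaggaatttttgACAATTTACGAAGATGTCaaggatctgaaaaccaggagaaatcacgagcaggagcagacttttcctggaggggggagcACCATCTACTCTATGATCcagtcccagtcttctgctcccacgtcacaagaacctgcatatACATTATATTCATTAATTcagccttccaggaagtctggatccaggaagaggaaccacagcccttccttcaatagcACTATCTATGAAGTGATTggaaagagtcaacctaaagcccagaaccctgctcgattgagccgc
DAP10 tail: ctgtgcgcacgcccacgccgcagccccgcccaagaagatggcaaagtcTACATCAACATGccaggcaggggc
The ITSMs began at residues 269, 295, 315 and 340, all within the printed stretch, and the DAP10 motif began at residue 86.

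The constructs' own genes were read first because they bear on the labels. FCGR3A, which encodes CD16a, had no read in any CTRL library and between 559 and 567 reads in FR1 and 1012 and 1132 in FR2. Levels are given in CPM, read counts scaled to a common library size with TMM factors, as mean ± SD with n = 3 libraries. FCGR3A was at 32.4 ± 0.435 CPM in FR1 and 61.3 ± 3.15 in FR2, against 25 CPM in hnCD16. The difference, FR1 minus FR2, was tested with edgeR (log2 fold change -0.92, SE 0.06, adjusted p = 4.1e-08). The FR1 libraries thus held less FCGR3A RNA than each FR2 library, and the paralog FCGR3B, whose reads cannot be assigned with certainty, followed it at 3.72 ± 1.12 CPM in FR1 and 7.11 ± 0.809 in FR2. Reads from the insert and from the endogenous gene were counted together. CD244 was at 128, 127 and 132 CPM in FR1 and 119, 114 and 111 CPM in FR2. The 3 FR1 libraries lay above the 3 FR2 libraries by a small amount (log2 fold change 0.17, SE 0.05, adjusted p = 0.012). The call was lost with DESeq2 (adjusted p = 0.054) and with scaling by library size alone (0.11). Leaving out FR1 replicate 1 or 3 or FR2 replicate 3 also ended it, with adjusted p between 0.052 and 0.064. How the CD244 reads were divided between its 6 listed transcripts differed more. The transcript that took most reads in FR2 held 73.7 to 80.1% of the gene's reads there and 37.3 to 48.2% in FR1. It held 76.6 to 100% in CTRL, on 115 to 137 reads for the gene, and 79.4 to 86.5% in hnCD16, on 178 to 185 reads. Whether this division comes from the insert was not tested. HCST was at 16.6 ± 0.308 CPM in FR1 and 18.4 ± 0.762 in FR2, which did not pass the test (log2 fold change -0.15, SE 0.07, adjusted p = 0.12). CD247 was at 104 ± 1.71 CPM in FR1 and 119.6 ± 1.20 in FR2 (log2 fold change -0.20, SE 0.05, adjusted p = 0.0047), a call that was lost with the GC offset described below. The CD244 total is therefore a weak check of which group carries the 2B4 segment.

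**Figure D1:**
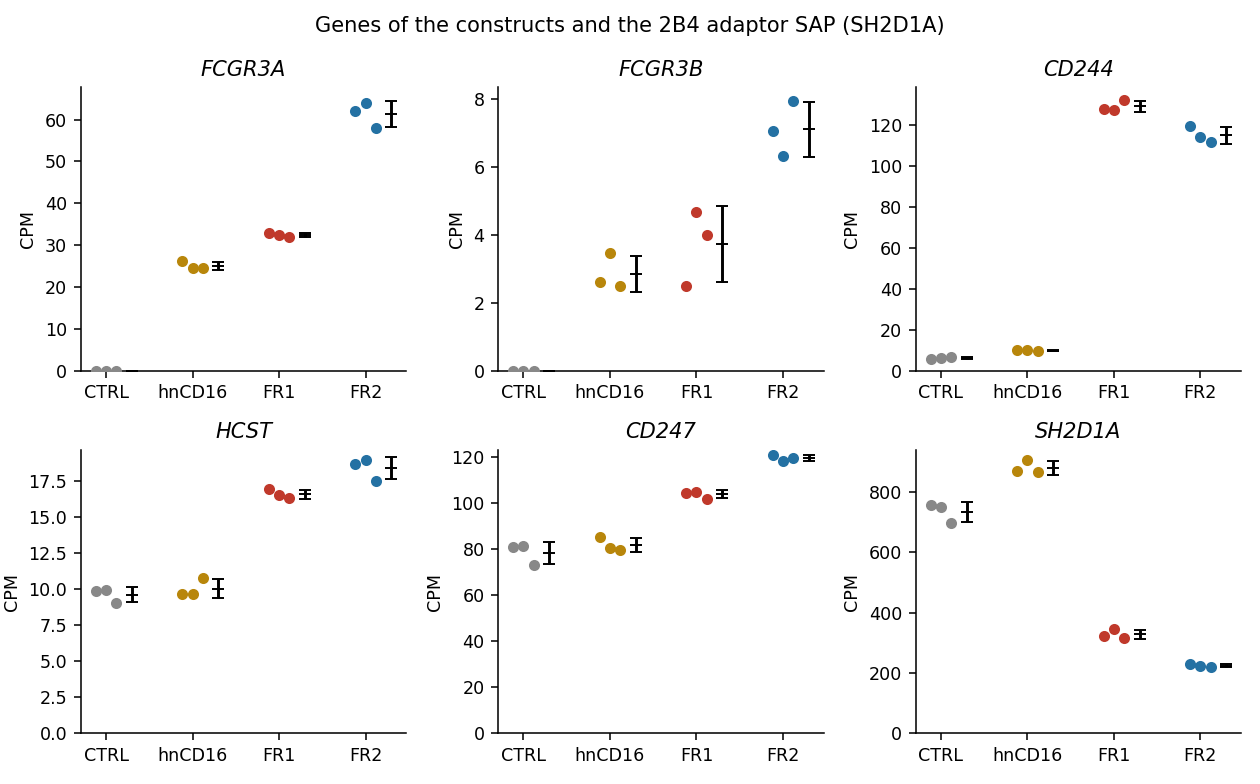
Level in CPM (vertical axis, from 0) of 6 genes in each library, with 3 points per group and the mean ± SD as a black bar beside them. FCGR3A is at 0 in CTRL and is higher in FR2 (61.3 CPM) than in FR1 (32.4 CPM); CD244 is 115 to 129 CPM in the fusion receptor groups and under 10 CPM in the other pair on average.

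The labelled cell type was checked against 12 NK cell markers. Their summed level was 4699 to 4947 CPM in FR1 and 4624 to 4730 CPM in FR2, and 58.7 to 65.6 CPM in the CTRL and hnCD16 libraries, where PRF1, GZMB and NCR1 were below 1 CPM. The summed T cell markers were 36.2 to 40.1 CPM in FR1, 41.6 to 43.0 CPM in FR2 and 657 to 797 CPM in CTRL and hnCD16, in which CD3D was the highest of them. Among the NK markers TYROBP had no read in FR1 or FR2, and CD7 and NCR3 were low there (CD7 at 0.825 and 1.17 CPM, NCR3 at 0.825 and 0.131 CPM in FR1 and FR2). The FR1 and FR2 libraries therefore carried most of the labelled identity. By the summed markers the other pair stood apart and went against the label, though not by every marker. Between FR1 and FR2 these lists moved slightly, and their part in the results was not tested. B cell markers summed to 38.3 to 42.4 CPM in FR1 and 45.3 to 47.4 CPM in FR2, nearly all of it PAX5. Myeloid markers summed to 5.67 to 6.86 and 9.46 to 10.3 CPM, with CD14 and MPO at or near 0. In addition, 231 genes that reached 20 CPM in every CTRL and hnCD16 library and stayed under 1 CPM in every FR1 and FR2 library summed to 0.257 to 0.294% of their CTRL and hnCD16 mean in FR1 and to 0.291 to 0.338% in FR2. For this reason CTRL and hnCD16 are read below only as levels beside a result. Their libraries still entered the gene filter, the scaling and the estimate of the spread behind each test of FR1 against FR2.

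Of 17589 genes listed, 13657 had enough reads to be tested. The filter read all 12 libraries, so some genes passed through CTRL or hnCD16 with few or no reads in FR1 and FR2. The adjusted p and the shares over all tested genes include them. With the FR1 and FR2 libraries alone, 12294 genes were tested. A gene was called differentially expressed (DEG) when its log2 fold change reached 1 in either direction and its p, adjusted over all 13657 genes, did not exceed 0.05 in edgeR's quasi-likelihood test. There were 264 DEGs, which is 1.93% of tested genes; 60 were higher in FR1 (0.439%) and 204 were lower (1.49%). At any fold change, 4939 genes (36.2%) passed the adjusted p, 2414 higher (17.7%) and 2525 lower (18.5%). Most differences were therefore small. TMM scaling sets the bulk of genes to no change on average, so their even split is not a result of its own. The differences past the fold threshold were mainly lower in FR1. DEGs were mostly weakly expressed: 111 had a mean under 1 CPM over the 6 libraries and 17 reached 20 CPM. The groups did not overlap for 256 of the 264 (97.0%), against 50.1% of all tested genes. A share of 47.3% of the DEGs, against 12.7% of tested genes, was under 1 CPM in both CTRL and hnCD16. In every CTRL and hnCD16 library, 35 DEGs were over 10 times higher than in any FR1 or FR2 library. These were 13.3% of the DEGs, against 6.64% of tested genes, and 31 of them had under 1 CPM here. Without those 35, an alternative chosen after seeing the data, the counts were 51 higher and 178 lower. With the libraries of FR1 and FR2 fitted alone there were 219 DEGs, 44 higher and 175 lower.

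**Figure D2:**
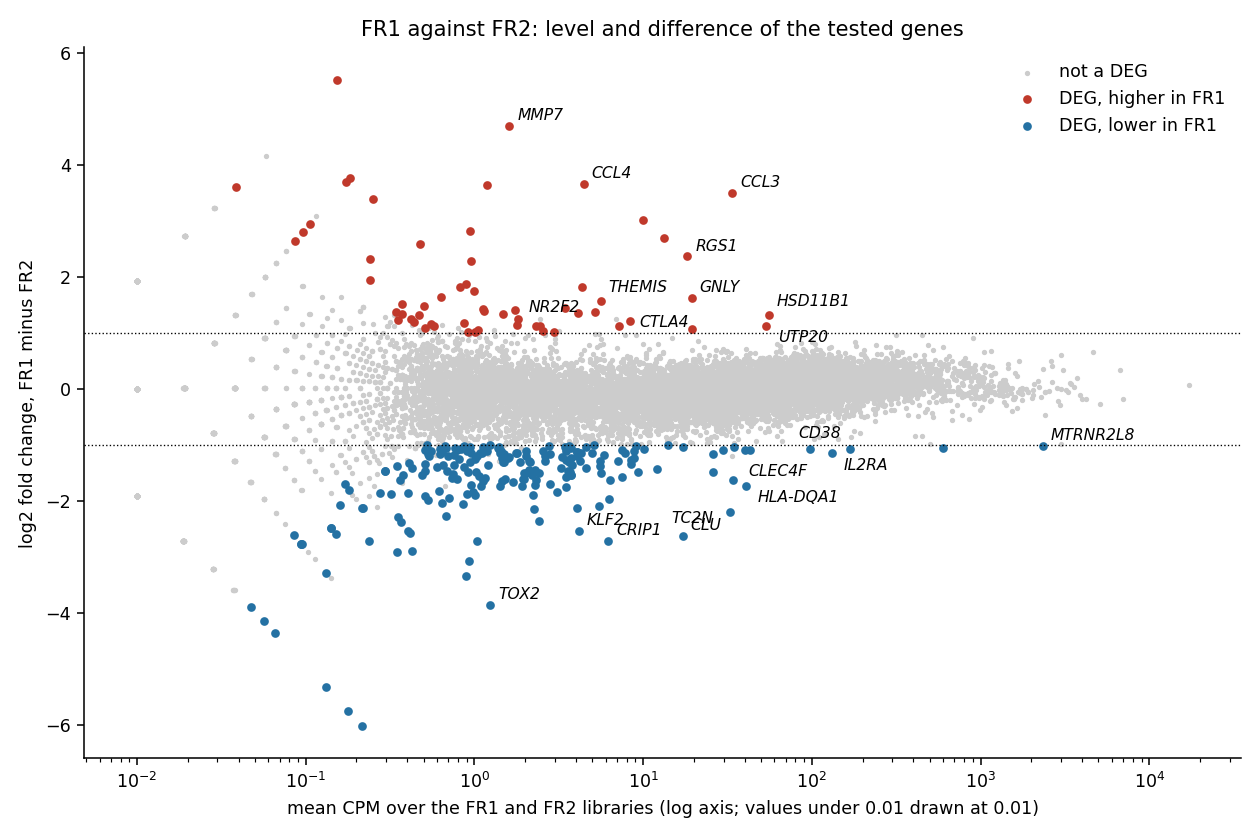
Each point is 1 tested gene, with its mean level over the FR1 and FR2 libraries (horizontal, log axis) and its log2 fold change, FR1 minus FR2 (vertical); DEGs are coloured and the dotted lines mark the fold threshold. The largest fold changes are at low levels, and few DEGs lie to the right of 20 CPM, among them CCL3, HSD11B1 and UTP20 above and IL2RA, CD38 and MTRNR2L8 below.

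The genes that were most clearly higher in FR1 were chemokine genes, which are given only briefly. CCL3 was at 61.9 ± 3.52 CPM in FR1 and 5.47 ± 0.974 in FR2 (log2 fold change 3.50, SE 0.10, adjusted p = 1.9e-11), and 8 of the 16 chemokine genes tested were DEGs, all higher in FR1. CCL3 and CCL4 have near-identical copies (CCL3L1, CCL3L3, CCL4L1, CCL4L2) whose reads cannot be assigned with certainty.

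Beyond the chemokines, FR1 was higher for a few genes of varied function, with signalling and effector genes among them. RGS1 (chr1:192575763-192580024), a regulator that dampens G protein signalling from chemokine receptors, was at 32.5, 31.7 and 27.9 CPM in FR1 and 6.38, 5.83 and 5.55 CPM in FR2. All FR1 libraries lay far above all FR2 libraries (log2 fold change 2.37, SE 0.11, adjusted p = 2.4e-10). GNLY (chr2:85685175-85698852), the membrane-lysing granule protein granulysin, was at 31.6, 28.6 and 28 CPM in FR1 and 9.90, 9.90 and 8.81 CPM in FR2, again with no overlap (log2 fold change 1.62, SE 0.12, adjusted p = 5.0e-08). FGR, a Src-family kinase, was at 26.5 ± 1.36 CPM in FR1 and 12.5 ± 1.03 in FR2 (log2 fold change 1.08, SE 0.09, adjusted p = 2.4e-07). HSD11B1 (chr1:209686178-209734949), the enzyme that regenerates active glucocorticoid, was one of 3 DEGs over 20 CPM in this direction, at 82.4, 79.0 and 78.1 CPM in FR1 and 32.2, 33.9 and 29.7 CPM in FR2 (log2 fold change 1.32, SE 0.06, adjusted p = 1.7e-08). It had no read in CTRL. UTP20, a factor of small ribosomal subunit assembly, was at 73.5 ± 3.29 CPM in FR1 and 33.8 ± 2.27 in FR2 (log2 fold change 1.12, SE 0.11, adjusted p = 1.2e-06).

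CTLA4 and THEMIS, better known from T cells, were also among the genes higher in FR1. CTLA4, an inhibitory receptor, was at 11.9, 11.4 and 11.7 CPM in FR1 and 5.48, 4.02 and 5.61 CPM in FR2. THEMIS, a regulator of T cell receptor signalling, was at 9.08, 7.80 and 8.28 CPM in FR1 and 3.47, 2.09 and 2.92 CPM in FR2. Both differed with no overlap between groups (log2 fold changes 1.21 and 1.57, adjusted p = 1.9e-05 and 2.5e-06). Of the 21 T cell genes tested, 2 were DEGs higher in FR1 and 1 was a DEG lower (14.3% in all, against 1.93% of all genes). At the adjusted p, 2 were higher (9.52%, against 17.7%) and 3 lower (14.3%, against 18.5%), with a median log2 fold change of -0.09. The lower DEG was RAG1, at 0.383 CPM in FR1 and 0.870 CPM in FR2, against 49.6 CPM in CTRL. CD3E of the T cell receptor complex was slightly lower (log2 fold change -0.17, SE 0.06, adjusted p = 0.041). MMP7, a secreted metalloproteinase, had 47 to 59 reads in FR1 and 1 to 3 in FR2, a ratio of 27.5 with a 95% counting interval of 12.4 to 76.0. NR2F2, an orphan nuclear receptor, was at 7.49 ± 0.521 CPM in FR1 and 2.89 ± 0.275 in FR2 (log2 fold change 1.37, SE 0.19, adjusted p = 3.9e-05). The activation factor EGR2 was at 3.97 ± 0.562 CPM in FR1 and 1.96 ± 0.393 in FR2 with a log2 fold change of 1.02. It fell below the fold threshold in DESeq2, with other scalings and without FR1 replicate 2 or 3 or FR2 replicate 2 (0.87 to 1.0), and in limma on log2(TPM + 1) and log2(TPM + 0.1) (0.62 and 0.95).

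**Figure D3:**
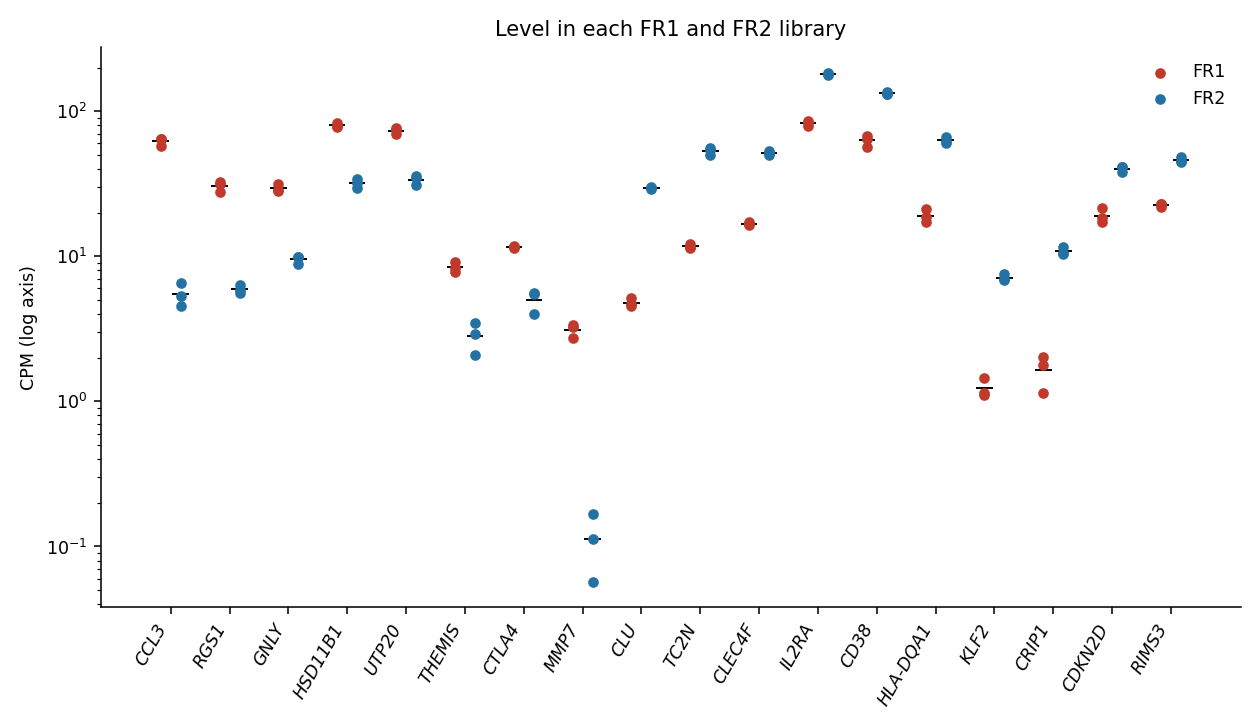
Level in CPM (log axis) of named genes in each FR1 library (red) and FR2 library (blue), with the group mean as a black line. The genes from CCL3 to MMP7 are higher in every FR1 library and those from CLU to RIMS3 are lower in every FR1 library.

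In the lists that follow, counts at the adjusted p stand beside 17.7% higher and 18.5% lower over all genes. The routes that the added segment and its partners use changed little in size. Of 19 tested genes in the 2B4 list, 5 were higher and 4 lower in FR1 at the adjusted p, none was a DEG, and the median log2 fold change was -0.02, against -0.0035 for all tested genes. The largest of these was SH2D1A (SAP), the adaptor that binds the ITSMs printed above, at 324, 345 and 317 CPM in FR1 and 231, 222 and 219.6 CPM in FR2 (log2 fold change 0.55, SE 0.05, adjusted p = 4.9e-07). CD48, the 2B4 ligand, was the other way round, at 97.2 ± 2.45 CPM in FR1 and 127 ± 3.32 in FR2 (log2 fold change -0.39, SE 0.06, adjusted p = 0.00012). SLAMF7, a related activating receptor, was at 8.85 ± 0.609 CPM in FR1 and 6.30 ± 0.359 in FR2, and the adaptor LAT and its partner PLCG1 were lower in FR1 (log2 fold changes -0.26 and -0.32). In the list of the DAP10, CD3ζ and PI3K route, 5 of 26 were higher and 6 lower. The catalytic subunit PIK3CD (log2 fold change 0.38), the regulatory subunit PIK3R1 (0.35) and the lipid phosphatase INPP4B (0.60, 137 ± 8.52 CPM in FR1 and 90.3 ± 2.32 in FR2) were higher, and the kinase ZAP70 was lower (-0.26). The one DEG was PIK3IP1, an inhibitor of PI3K, at 0.845 ± 0.0870 CPM in FR1 and 2.09 ± 0.455 in FR2 (log2 fold change -1.30, SE 0.27, adjusted p = 0.0012). The NKG2D gene KLRK1, which DAP10 serves, was at 23.9 ± 0.723 CPM in FR1 and 23.7 ± 0.781 in FR2, a difference well within the spread (log2 fold change 0.01, SE 0.08, adjusted p = 0.93).

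Granule and NK receptor genes gave a mixed picture. Among 19 cytotoxic granule genes tested, 4 were higher in FR1 (21.1%, against 17.7% of all genes) and 8 lower (42.1%, against 18.5%), and the median was -0.15. GNLY was the only DEG. Perforin (PRF1) was at 438, 396 and 435 CPM in FR1 and 544, 549 and 536 CPM in FR2, lower in every FR1 library (log2 fold change -0.36, SE 0.06, adjusted p = 0.00016), and granzyme A (GZMA) was lower as well (log2 fold change -0.44). Granzyme B (GZMB), the most abundant granule gene named here, was at 2779.7 ± 69.7 CPM in FR1 and 2557 ± 59.2 in FR2, a difference at the edge of the test (log2 fold change 0.12, SE 0.05, adjusted p = 0.049). Of the 17 NK cell receptor genes tested outside the KIR and SLAM families, 2 were higher in FR1 and none was lower. CD160, a receptor for HLA class I, was at 141 ± 3.82 CPM in FR1 and 104 ± 0.995 in FR2 (log2 fold change 0.44, SE 0.07, adjusted p = 0.00011). NCR3, which encodes NKp30, was the DEG in this list but had 12 to 17 reads in FR1 and 0 to 5 in FR2. The inhibitory receptor KLRC1 was at 172 CPM in both groups.

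HLA class II genes were lower in FR1. These proteins present peptide from the endocytic route, CD74 is their chaperone, and CIITA is the coactivator that switches the genes on together with the factor RFX. Of 16 tested genes, 12 were lower at the adjusted p (75%, against 18.5% of all genes), none was higher, and the median log2 fold change was -0.51. HLA-DQA1 was the DEG among them, at 18.5, 17.1 and 21.1 CPM in FR1 and 60.1, 66.6 and 62.2 CPM in FR2 (log2 fold change -1.74, SE 0.10, adjusted p = 4.1e-09). CD74 was at 332, 303 and 336 CPM in FR1 and 587, 593 and 546 CPM in FR2 and HLA-DRA at 548, 548 and 541 CPM in FR1 and 797, 822 and 795 CPM in FR2. Neither gene's groups overlapped (log2 fold changes -0.83 and -0.56). CIITA itself was at 80.6, 84.2 and 84.5 CPM in FR1 and 125, 132 and 131 CPM in FR2 (log2 fold change -0.64, SE 0.05, adjusted p = 1.1e-07). The remaining 8 were HLA-DOA (-0.84), HLA-DMB (-0.66), HLA-DQB1 (-0.64), HLA-DRB5 (-0.57), HLA-DPA1 (-0.45), HLA-DRB1 (-0.44), HLA-DPB1 (-0.37) and HLA-DMA (-0.24), all as log2 fold changes, and HLA-DOB and the RFX subunits RFX5, RFXANK and RFXAP did not pass, with values from -0.08 to 0.09. HLA genes are polymorphic and alike, so reads may be shared among DRB and DQ genes.

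The RefSeq sequence (GRCh38.p14) of the 250 bases before the start of 3 genes of this list that were lower is shown, with every CCAAT or its complement ATTGG, the letters of the class II Y box, in capitals. HLA-DQA1 is at chr6:32637156-32637405 on the plus strand, HLA-DMB at chr6:32941029-32941278 and CD74 at chr5:150412911-150413160, both on the minus strand.
HLA-DQA1: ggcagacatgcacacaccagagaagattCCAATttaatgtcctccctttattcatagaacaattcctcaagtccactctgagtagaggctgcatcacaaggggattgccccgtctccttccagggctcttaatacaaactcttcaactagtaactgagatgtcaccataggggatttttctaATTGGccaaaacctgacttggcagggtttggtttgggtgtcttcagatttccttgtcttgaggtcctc
HLA-DMB: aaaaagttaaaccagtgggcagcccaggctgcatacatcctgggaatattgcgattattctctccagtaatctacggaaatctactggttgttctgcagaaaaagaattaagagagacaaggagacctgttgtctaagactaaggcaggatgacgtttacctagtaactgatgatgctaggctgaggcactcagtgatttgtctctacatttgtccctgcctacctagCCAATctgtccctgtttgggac
CD74: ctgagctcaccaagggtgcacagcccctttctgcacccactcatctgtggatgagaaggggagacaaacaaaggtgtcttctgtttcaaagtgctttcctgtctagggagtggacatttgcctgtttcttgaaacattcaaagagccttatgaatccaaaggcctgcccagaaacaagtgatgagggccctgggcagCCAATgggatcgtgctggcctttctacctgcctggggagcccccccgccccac
These letters, on either strand, were found in 11 of the 14 list members with a promoter in the RefSeq table and in 32.0% of all 35116 promoters of that length. The longer X box, searched as 1 fixed pattern, was found in HLA-DQB1, HLA-DMA and HLA-DMB, against 0.128% of all promoters. The 11 included RFX5 and HLA-DOB, which did not pass the test. HLA-DPA1, which was lower, had no such letters in the stretch searched, chr6:33080749-33080998. That stretch lies within the HLA-DPB1 gene (chr6:33075990-33089696), and other starts of HLA-DPA1 were not searched. HLA-DRA and CIITA had no entry.

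HLA class I genes were split. Of 19 genes for class I and peptide loading, 8 were lower and 5 higher, with no DEG. Beta-2-microglobulin (B2M), the light chain, was at 4654 ± 208 CPM in FR1 and 5604 ± 179 in FR2 (log2 fold change -0.27). The 5 that were higher were PSMB10, a proteasome subunit, ERAP1 and ERAP2, which trim peptides, and the chaperones CALR and PDIA3 (0.16 to 0.32).

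Cytokine receptor genes were also mainly lower in FR1. Of 45 tested, 20 were lower (44.4%, against 18.5% of all genes), 1 was higher (IFNAR1; 2.22%, against 17.7%) and 4 were DEGs (8.89%, against 1.93%), with a median log2 fold change of -0.24. IL2RA (chr10:6010689-6062370), the alpha chain of the interleukin-2 receptor, was at 85.1, 79.1 and 83.2 CPM in FR1 and 181, 179 and 184 CPM in FR2. Its groups lay well apart (log2 fold change -1.13, SE 0.05, adjusted p = 2.4e-10). CSF1R, the receptor of macrophage colony-stimulating factor, was at 1.96 ± 0.231 CPM in FR1 and 5.45 ± 0.286 in FR2 (log2 fold change -1.47, SE 0.20, adjusted p = 3.0e-05). LIFR and EPOR were DEGs with 2 to 26 reads per library. EPOR lost the call without FR2 replicate 2 (adjusted p = 0.077), and LIFR without FR1 replicate 1 or 2 or FR2 replicate 1 or 2 (0.055 to 0.10). Interleukin receptors under the fold threshold included IL4R (15.9 ± 0.441 CPM in FR1 and 24.4 ± 0.856 in FR2) and IL21R (35.6 ± 1.65 CPM in FR1 and 54.4 ± 0.260 in FR2). IL7R was at 1.19 ± 0.209 CPM in FR1 and 2.32 ± 0.270 in FR2. The signal chains IL2RB and IL2RG did not pass (-0.04 and -0.15).

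Signalling genes that serve such receptors were lower as well. In the interleukin-2 and JAK-STAT list, which also holds IL2RA, 11 of 25 were lower (44%, against 18.5% of all genes), none was higher and the median was -0.18; with the GC offset 11 were lower and 2 higher. BCL6, a repressor that STAT signals control, was at 45.7 ± 3.0 CPM in FR1 and 87.3 ± 1.54 in FR2 (log2 fold change -0.93, SE 0.07, adjusted p = 8.2e-08). The feedback inhibitors SOCS3 (131 ± 5.41 CPM in FR1 and 184 ± 6.59 in FR2) and CISH (18.9 ± 0.401 CPM in FR1 and 25.2 ± 0.432 in FR2) were lower too, as was STAT4 (-0.56). In the list of NF-kB subunits and feedback genes, 10 of 21 were lower (47.6%, against 18.5% of all genes) and 1 was higher (TNIP3), with a median of -0.27. NFKB2, the p100 subunit, was at 16.3, 14.5 and 16.4 CPM in FR1 and 27.1, 27.4 and 29.2 CPM in FR2 (log2 fold change -0.83, SE 0.09, adjusted p = 5.6e-06). Its partner RELB was at 3.93 ± 0.517 CPM in FR1 and 6.40 ± 1.12 in FR2. BIRC3, an NF-kB-induced inhibitor of apoptosis, was at 49.0 ± 4.08 CPM in FR1 and 82.2 ± 2.53 in FR2 (log2 fold change -0.75, SE 0.12, adjusted p = 0.00014). The inhibitors NFKBIA (-0.30) and TNFAIP3 (-0.43) were lower by less, and the subunits RELA, NFKB1 and REL did not pass (-0.11 to 0.10). No member of either of these lists other than IL2RA was a DEG.

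Receptors for homing and for lymphocyte traffic were split. Of 22 tested, 7 were lower in FR1 and 4 higher. S1PR1, which draws lymphocytes out of tissue, was at 3.02 ± 0.518 CPM in FR1 and 6.17 ± 0.376 in FR2 (log2 fold change -1.03, SE 0.15, adjusted p = 6.5e-05). Its log2 fold change was -0.93 without FR1 replicate 3 and -0.99 without FR2 replicate 2. CCR2 was at 1.02 ± 0.169 CPM in FR1 and 2.90 ± 0.496 in FR2 (log2 fold change -1.51, SE 0.26, adjusted p = 0.00024). CCR7 was at 13.4 ± 0.640 CPM in FR1 and 20.3 ± 0.823 in FR2 (-0.60). CXCR6 was at 12.7 ± 0.765 CPM in FR1 and 7.31 ± 0.457 in FR2 (log2 fold change 0.80, SE 0.13, adjusted p = 0.00012). The scavenging receptor ACKR3 had 19 to 36 reads in FR1 and 3 to 5 in FR2. KLF2, the transcription factor known to drive S1PR1 in lymphocytes, was at 1.10, 1.45 and 1.14 CPM in FR1 and 6.88, 6.96 and 7.55 CPM in FR2 (log2 fold change -2.53, SE 0.17, adjusted p = 2.3e-08). In CTRL and hnCD16, KLF2 was at 0.201 and 0.179 CPM and S1PR1 at 7.75 and 5.75 CPM. A link between KLF2 and S1PR1 in these cells was not tested. CXCR4 passed the test with 3 to 6 reads in FR1 and 7 to 17 in FR2, against 292 CPM in CTRL and 303 CPM in hnCD16. It lost the call without FR1 replicate 1 or 2 or FR2 replicate 1 (adjusted p = 0.052, 0.074 and 0.16).

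Several other genes of varied function were lower in FR1, among them some with the lowest p-values. TC2N (chr14:91779746-91867536), a C2-domain protein, had the lowest p of all genes and was at 12.1, 11.6 and 11.4 CPM in FR1 and 54.2, 50.2 and 55.5 CPM in FR2 (log2 fold change -2.19, SE 0.07, adjusted p = 6.2e-12). CLU, the secreted chaperone clusterin, was at 4.69, 4.57 and 5.14 CPM in FR1 and 29.4, 30.0 and 28.9 CPM in FR2 (log2 fold change -2.62, SE 0.11, adjusted p = 2.1e-10). CD38 (chr4:15778275-15853232), an NAD-consuming ectoenzyme that marks activated lymphocytes, was at 57.0, 67.5 and 64.3 CPM in FR1 and 132, 131 and 135 CPM in FR2 (log2 fold change -1.07, SE 0.06, adjusted p = 2.5e-09). The groups of these 3 genes lay well apart. CLEC4F, a C-type lectin, was at 16.8 ± 0.385 CPM in FR1 and 51.5 ± 1.61 in FR2 (log2 fold change -1.61). SLPI, an inhibitor of leukocyte proteases, was at 2.55 ± 0.0444 CPM in FR1 and 9.98 ± 0.359 in FR2 (-1.96). SLC44A2, a choline transporter, was at 16.0 ± 0.484 CPM in FR1 and 35.9 ± 1.92 in FR2. RIMS3, a regulator of exocytosis, was at 22.5 ± 0.559 CPM in FR1 and 46.2 ± 1.77 in FR2. ALOX5AP, which activates 5-lipoxygenase for leukotriene synthesis, was at 3.76 ± 0.243 CPM in FR1 and 11.1 ± 0.668 in FR2 (log2 fold change -1.56, SE 0.13, adjusted p = 2.1e-07). CRIP1, a small LIM-domain protein, was at 1.65 ± 0.457 CPM in FR1 and 10.8 ± 0.638 in FR2 (log2 fold change -2.71, SE 0.13, adjusted p = 7.9e-10). The last 2 were expressed in CTRL and hnCD16 at 27.3 to 64.5 CPM on average. LRP1, an endocytic receptor, was at 4.78 ± 0.772 CPM in FR1 and 12.2 ± 0.707 in FR2, and NOX5, a calcium-dependent oxidase, at 2.92 ± 0.484 CPM in FR1 and 8.28 ± 0.733 in FR2.

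Of 18 checkpoint genes tested, 7 were lower in FR1 (38.9%, against 18.5% of all genes) and 2 were higher, CTLA4 and PDCD1 (0.34), with a median of -0.28. HAVCR2, which encodes TIM-3, was at 10.7 ± 0.788 CPM in FR1 and 19.3 ± 1.19 in FR2 (log2 fold change -0.85, SE 0.09, adjusted p = 3.5e-06). LAG3 was lower by 0.38 on the log2 scale, and the PD-1 ligand PDCD1LG2 was a DEG at under 1 CPM.

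Cell cycle genes were mainly higher in FR1. Of 50 genes for DNA replication and mitosis, 27 were higher (54.0%, against 17.7% of all genes), 3 were lower and none was a DEG, with a median of 0.19. BUB1, a spindle checkpoint kinase, was at 398, 407 and 395 CPM in FR1 and 313, 308 and 313 CPM in FR2 (log2 fold change 0.36, SE 0.04, adjusted p = 4.8e-06). GINS3, of the replicative helicase, was at 79.5 ± 2.52 CPM in FR1 and 54.5 ± 1.54 in FR2 (log2 fold change 0.55, SE 0.06, adjusted p = 6.1e-06). CCNB1, the mitotic cyclin B1, was at 355 ± 4.57 CPM in FR1 and 270.3 ± 9.00 in FR2. The long transcripts CENPF (618 ± 61.7 CPM in FR1 and 358 ± 34.0 in FR2) and ASPM (367 ± 18.2 CPM in FR1 and 217 ± 18.6 in FR2) differed most (0.79 and 0.76). In the list of p53 targets and CDK inhibitors, 16 of 35 were lower (45.7%, against 18.5% of all genes) and 2 were higher (FAS and MDM2), with a median of -0.18. CDKN2D, which encodes the CDK4 and CDK6 inhibitor p19, was at 21.6, 17.2 and 18.2 CPM in FR1 and 41.5, 41.1 and 37.9 CPM in FR2 (log2 fold change -1.08, SE 0.08, adjusted p = 5.2e-08). Its log2 fold change was -0.94 with the GC offset described below. CDKN1B (-0.25) and CDKN2C (-0.21) were lower by less, CDKN1A did not pass (-0.13), and MXD3, an antagonist of MYC partners, was at 9.33 ± 0.491 CPM in FR1 and 18.7 ± 1.31 in FR2 (-1.0).

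Chaperone genes were split. In the list of unfolded protein and heat shock genes, 12 of 29 were higher in FR1 and 7 lower. Among the first were HSPA8, HSP90AA1 and HSPH1, which are cytosolic chaperones. HSPA8 was at 5692 ± 77.0 CPM in FR1 and 3577 ± 30.1 in FR2 (log2 fold change 0.67, SE 0.06, adjusted p = 4.3e-07). HSP90AA1 was at 3641 ± 90.6 CPM in FR1 and 2383 ± 192 in FR2 (log2 fold change 0.61, SE 0.10, adjusted p = 0.0001). HSPH1 was at 229.8 ± 6.66 CPM in FR1 and 135 ± 4.93 in FR2 (0.77). The HSP70 gene HSPA1B (-0.43), the cochaperone BAG3 (-0.86) and HSPA6 were lower, the last a DEG with 10 to 26 reads in FR1 whose value was -0.99 without FR1 replicate 2. Among 34 glycolysis and pentose phosphate genes, 11 were higher and 8 lower. ALDOA was at 667 ± 24.2 CPM in FR1 and 495 ± 19.9 in FR2 (0.43) and GAPDH at 7522 ± 265 CPM in FR1 and 5946 ± 156 in FR2 (0.34). Hexokinase HK1 was at 41.9 ± 1.31 CPM in FR1 and 54.7 ± 0.326 in FR2 (-0.39). Of 80 nuclear genes for oxidative phosphorylation, 16 were higher (20%, near the 17.7% of all genes) and 4 lower with a median of 0.05, and the GC offset left 16 higher and 9 lower. Of 39 genes for cholesterol and fatty acid synthesis, 11 were lower and 4 higher, or 14 and 8 with the GC offset. The stress factor ATF5 was at 12.1 ± 1.12 CPM in FR1 and 6.17 ± 0.742 in FR2 (0.97). The glutathione enzyme MGST3 was at 141 ± 1.68 CPM in FR1 and 243 ± 6.12 in FR2 (log2 fold change -0.79, SE 0.05, adjusted p = 2.4e-08).

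Of 43 interferon-stimulated genes, 9 were lower (20.9%, near the 18.5% of all genes), 3 were higher (6.98%, against 17.7%) and none was a DEG. IFITM1, a membrane protein that restricts virus entry, was at 300.3, 278 and 301 CPM in FR1 and 523, 547 and 498 CPM in FR2 (log2 fold change -0.83, SE 0.06, adjusted p = 6.2e-08). IFITM2 was at 355 ± 16.1 CPM in FR1 and 493 ± 16.9 in FR2 and ISG20 at 14.8 ± 0.287 CPM in FR1 and 24.7 ± 0.983 in FR2. The 3 that were higher were guanylate-binding proteins, GBP1 (0.36), GBP4 (0.26) and GBP5 (0.31).

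Transcription factors of activation and lineage included both directions. In the activation-induced list, 9 of 29 were lower and 4 higher; with the GC offset 9 were lower and 8 higher. TOX2 had 2 to 3 reads in FR1 and 26 to 49 in FR2, a ratio of 15.1 with a counting interval of 7.43 to 35.8, and it was at or near 0 in CTRL and hnCD16. TOX2 and MMP7 were the only genes at 3 counts or fewer in every library of one group and at 1 CPM or more in each library of the other. KLF6 (25.2 ± 1.94 CPM in FR1 and 39.4 ± 1.54 in FR2), JUNB (154 ± 13 CPM in FR1 and 202 ± 11.4 in FR2) and JUN (24.5 ± 1.21 CPM in FR1 and 31.6 ± 0.824 in FR2) were lower. The higher members besides EGR2 were FOSB, NFATC3 and KLF10 (0.27 to 0.99). In the list of NK and T lineage factors, 10 of 38 were lower and 4 higher; GATA3 (-0.50), EOMES (-0.28), ETS1 (0.32) and ZEB2 (0.26) are examples. The DEG of that list, ZBTB16, had 1 to 2 reads in FR1 and 3 to 6 in FR2. It lost the call in DESeq2, with no filter on low counts, with the GC offset and without any single library other than FR2 replicate 1 (adjusted p up to 0.13).

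In the list of ERK, calcium and RAS feedback genes, 9 of 35 were lower and 5 higher. Besides RGS1 and SPRY4, which had almost no reads, the RAS inhibitor RASA3 was higher, at 1.54 ± 0.317 CPM in FR1 and 0.452 ± 0.0516 in FR2 (log2 fold change 1.75, SE 0.24, adjusted p = 3.2e-05). The RAS activator RASGRP2 was lower, at 1.23 ± 0.119 CPM in FR1 and 3.34 ± 0.209 in FR2 (log2 fold change -1.44, SE 0.16, adjusted p = 4.5e-06). Both were at 24.7 CPM or more in CTRL and hnCD16. NOTCH signalling had 8 of 18 members lower and 1 higher, with a median of -0.27, but its DEGs rested on few reads. HEY1 had 8 to 10 reads in FR1 and 26 to 33 in FR2. HES1 and DTX1 had 0 to 3 in FR1 and 5 to 9 in FR2. In CTRL and hnCD16, HES1 was at 71.9 and 71.4 CPM, DTX1 at 2.82 and 4.06 CPM and HEY1 at 0.0166 and 0.018 CPM. HES1 and DTX1 each lost the call without at least 1 library. For DTX1 this was FR1 replicate 2 (adjusted p = 0.067). For HES1 it was FR1 replicate 2 or 3 or FR2 replicate 1 or 2 (0.050 to 0.086). In the TGF-beta and BMP list, 6 of 30 were lower (20%, near the 18.5% of all genes) and 1 was higher; with the GC offset 10 were lower and 0 higher. SMAD3, a transducer of that pathway, was at 117 ± 2.01 CPM in FR1 and 177 ± 4.43 in FR2 (log2 fold change -0.60, SE 0.07, adjusted p = 6.4e-06). In the WNT list 7 of 29 were lower and 2 higher. TCF7L2, a factor that binds beta-catenin, was at 0.134 ± 0.0661 CPM in FR1 and 0.510 ± 0.153 in FR2. Its level was 12.1 CPM in CTRL and 9.84 CPM in hnCD16. In the hypoxia list 7 of 27 were higher and 5 lower, which turned to 5 higher and 7 lower with the GC offset, with the DEG NDRG1 near the floor of 3 counts in FR1 and the other 6 higher genes at 0.18 to 0.33 on the log2 scale. Of 36 axon guidance genes, 12 were lower and none was higher.

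**Figure D4:**
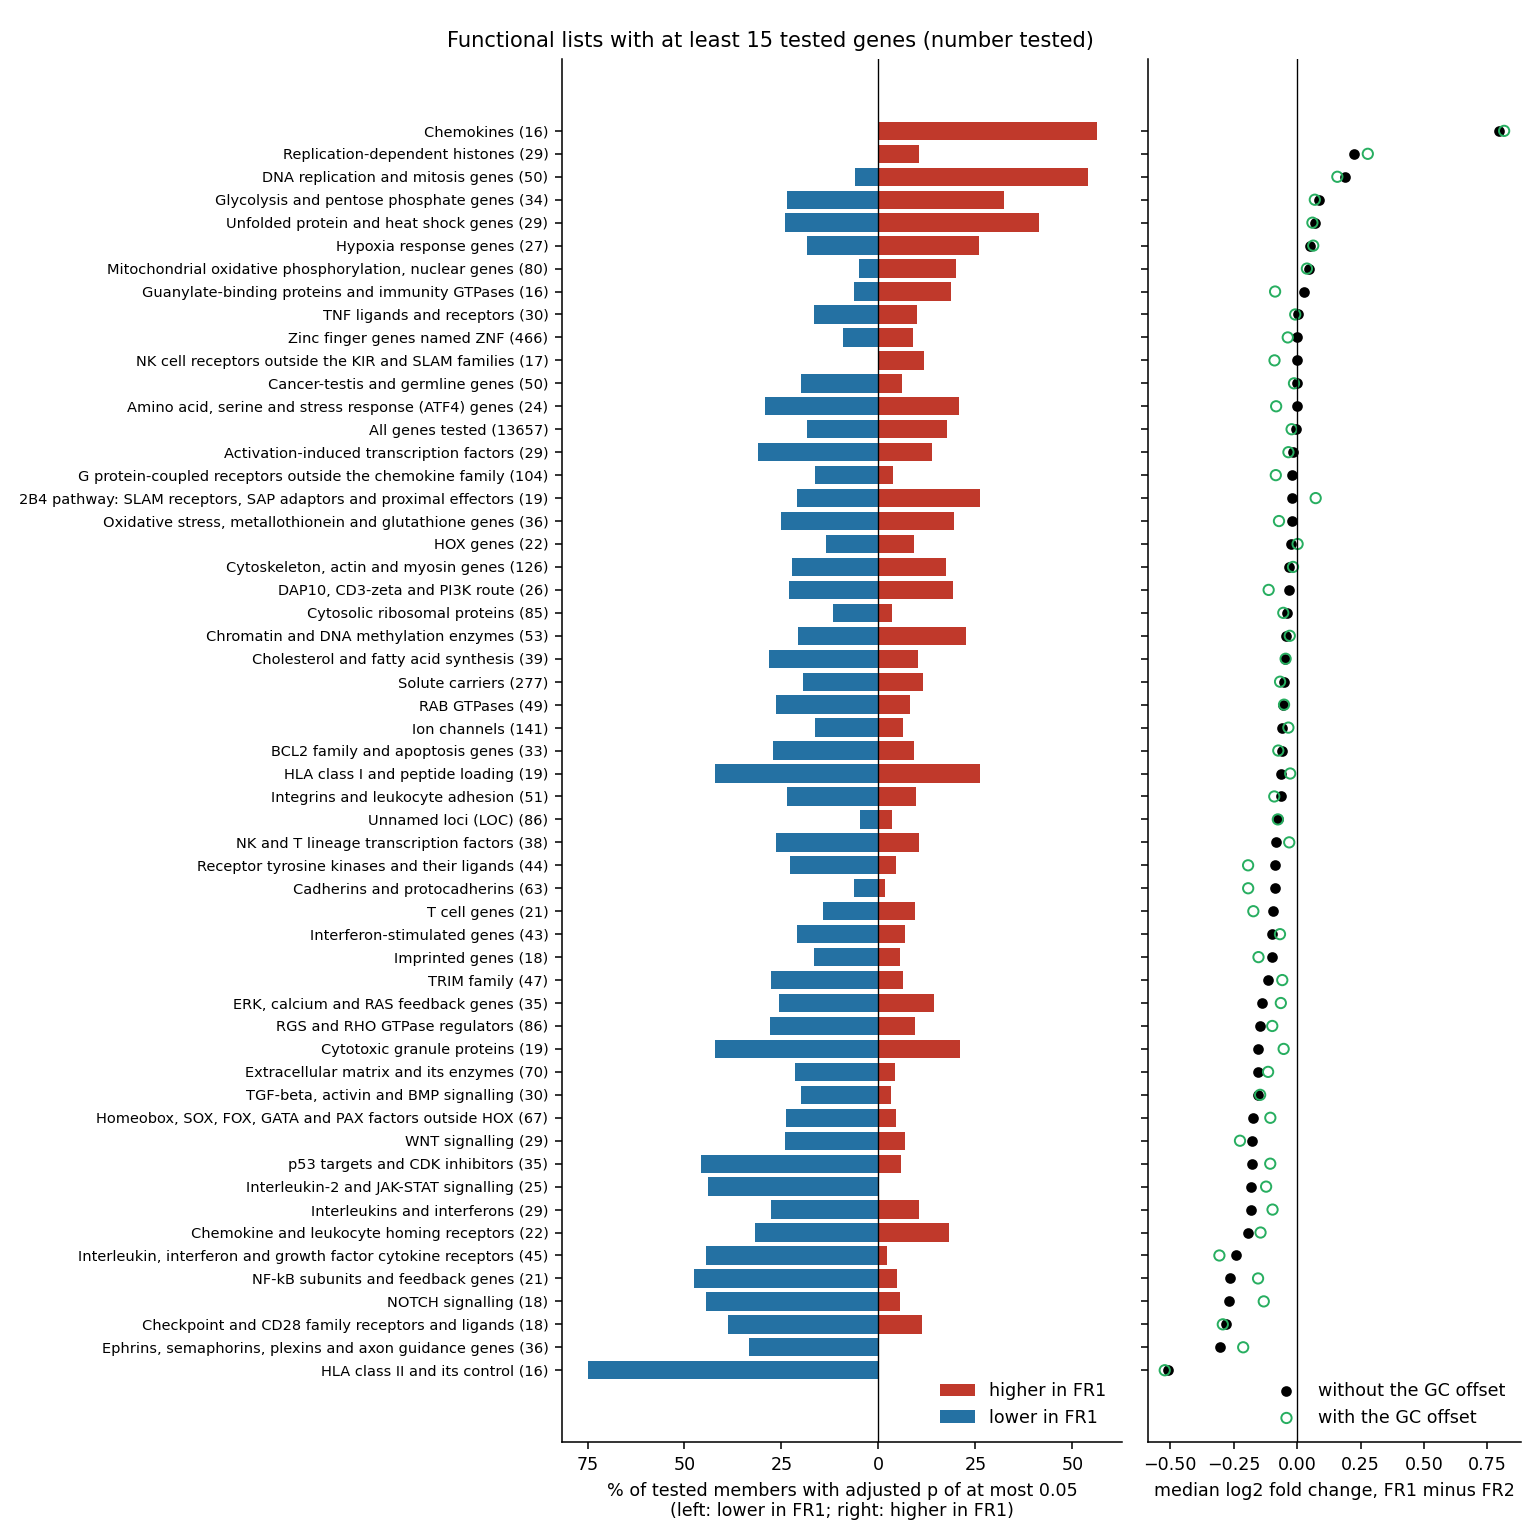
Left, the share of tested members that passed the adjusted p, drawn to the right where higher and to the left where lower in FR1, for each list with at least 15 tested genes (number in parentheses); right, the median log2 fold change of the list without (black) and with (green) the GC offset. HLA class II is at the bottom with 75% lower and a median of -0.51, and chemokines and DNA replication and mitosis genes are near the top.

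Large gene families held DEGs at different shares, beside 1.93% over all genes. Of 277 solute carriers 8 were DEGs (2.89%; 1 higher and 7 lower), of 141 ion channels 7 (4.96%; 2 and 5), of 70 matrix genes 5 (7.14%; 2 and 3) and of 466 ZNF genes 2 (0.429%). CFTR, a chloride channel, was at 2.52 ± 0.275 CPM in FR1 and 6.68 ± 0.666 in FR2 (log2 fold change -1.41, SE 0.15, adjusted p = 2.1e-06). SLC27A1, a fatty acid transporter, was at 4.99 ± 0.670 CPM in FR1 and 12 ± 0.439 in FR2. The GABA receptor subunit GABRA4 had 20 to 25 reads in FR1 and 6 to 7 in FR2. Cytosolic ribosomal protein genes had 10 of 85 lower (11.8%, against 18.5% of all genes) and 3 higher (3.53%, against 17.7%) with a median of -0.04, and 19 lower and 6 higher with the GC offset. By chromosome, medians ran from -0.09 (chromosome 19) to 0.11 (chromosome 21), and the share of DEGs from 0% on chromosome 21 to 3.31% on chromosome 15.

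MTRNR2L genes are listed apart because they are near-identical nuclear copies of a part of the mitochondrial 16S ribosomal RNA and reads cannot be assigned to them with certainty. MTRNR2L8 was at 1544, 1587 and 1547 CPM in FR1 and 2913, 3194 and 3291 CPM in FR2 (log2 fold change -1.01, SE 0.05, adjusted p = 1.0e-09), the most abundant DEG, and MTRNR2L9 was at 390.2 ± 21.1 CPM in FR1 and 813 ± 64.9 in FR2. The fold of MTRNR2L8 was at the threshold: without FR1 replicate 3, FR2 replicate 2 or FR2 replicate 3 its log2 fold change lay between -1.0 and -0.97. CTRL and hnCD16 were at 1439 and 1814 CPM. The readthrough loci NEDD8-MDP1 and HSPE1-MOB4 were DEGs higher in FR1 and overlap other genes, so their reads are likewise uncertain.

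The difference between FR1 and FR2 moved with the GC content of transcripts, taken from the longest GENCODE v44 transcript of 13545 tested genes. The median log2 fold change was 0.12, 0.06, -0.0016, -0.08 and -0.15 from the quintile lowest in GC content to the highest. DEGs lower in FR1 numbered 19 in the lowest quintile and 69 in the highest, and those higher in FR1 13 and 4. When a GC curve fitted to each library was taken off (an alternative chosen after seeing the data), the quintile medians lay between -0.03 and -0.01, and the highest quintile held 42 lower and 11 higher DEGs. There were 236 DEGs in all, 59 higher and 177 lower, of which 220 were shared with the 264. HLA class II then had 12 of 16 members lower (median -0.52), DNA replication and mitosis genes 27 of 50 higher (median 0.16), cytokine receptors 22 of 45 lower (median -0.31) and NF-kB genes 8 of 21 lower (median -0.15). The lists of hypoxia, activation-induced, TGF-beta, oxidative phosphorylation, cholesterol and ribosomal protein genes changed their counts as given beside each. Other lists moved too. NOTCH genes had 6 of 18 lower (median -0.13) and WNT genes 5 of 29 (median -0.22). Checkpoint genes had 5 of 18 lower (median -0.29), and p53 targets and CDK inhibitors 13 of 35 (median -0.11). What in the libraries the gradient comes from was not tested.

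**Figure D5:**
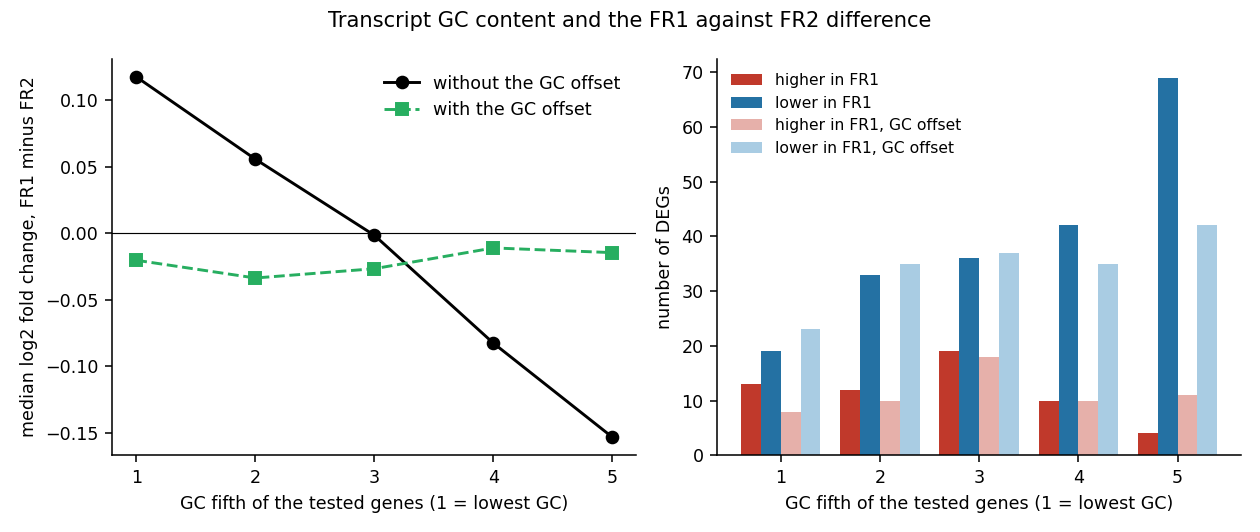
Left, median log2 fold change (FR1 minus FR2) of the tested genes in each quintile of transcript GC content, without (black) and with (green) the GC offset; right, the number of DEGs in each quintile. Without the offset the medians run from 0.12 to -0.15 and lower DEGs from 19 to 69; with it the medians lie near 0 and the highest quintile holds 42.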

How the data were processed

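RNA-seq was carried out on 12 libraries of unstimulated cells labelled YT, 3 each of CTRL, hnCD16, FR1 and FR2. The authors trimmed reads with SOAPnuke, aligned them with HISAT2 to GRCh38.p13 and deposited expected counts and TPM per gene from RSEM 1.3.1. Bowtie2 2.3.4.3 is also listed among the tools used before deposit. Strand setting and the handling of reads shared by paralogs are not given in the sources used here. Here the deposited expected counts were rounded and fitted with edgeR 4.0.16 (R 4.3.3), with TMM factors, filterByExpr and the quasi-likelihood test over all 12 libraries, which share 1 estimate of the spread; FR1 minus FR2 was the contrast. P-values were adjusted by Benjamini-Hochberg. The deposited TPM values were used only as an alternative, on log2(TPM + 1) and log2(TPM + 0.1) with limma 3.58.1; DESeq2 1.42.0 was another. Totals were 18381680 to 18432097 reads in FR1 and 17714550 to 18102731 in FR2, where 3 counts, taken as the floor, equal 0.168 to 0.174 CPM. Counting intervals cover counting error only. The test was checked on counts simulated for this comparison, with the spread between libraries (the dispersion) set to 0.003. Among 13398 genes, 200 of 200 changed by a log2 fold of 2 were called. Changes nearer the threshold of 1 were not simulated, and recovery was not split by level. Of the 264 DEGs, 58 passed a log2 fold of 2 in either direction and 111 averaged under 1 CPM. The check therefore does not show how well smaller changes or weakly expressed genes are called.

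Genes were described in 62 lists by function, and named by this rule: construct genes; the 15 highest and 15 lowest log2 fold changes among DEGs of at least 1 CPM; up to 15 DEGs of at least 20 CPM by p in each direction; in each list up to 6 DEGs or, with none, the 2 members of lowest p; and genes near 0 in only 1 group. Not all of these are reported here, and further list members were named after their values were seen. The members and lists were chosen with earlier results of these data known. Positions are from GENCODE v44 by symbol. Alternatives were other scalings and tools, filters, GC content, a replicate block and leaving out each library. Lists are described by counts and medians, with no test of their own.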

Additional observations from a re-analysis of the deposited data

How the results depend on the processing

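The count of DEGs, 264 in all with 60 higher and 204 lower in FR1, moved with several choices. A minimum of 10 counts gave 131 (25 higher, 106 lower), a mean of at least 1 CPM, chosen after seeing the data, gave 153 (30 and 123), and no filter on low counts gave 306 (71 and 235). Using limma on log2(TPM + 1), which changes test, unit and pseudocount at once, gave 58 (15 and 43), and on log2(TPM + 0.1) 197 (31 and 166). With no fold threshold there were 4939 (2414 and 2525). DESeq2 gave 206 (40 and 166), and scaling by library size alone moved the median of all genes to -0.0665 and gave 288 (52 and 236). Leaving out 1 library gave 250 to 287 DEGs, 54 to 68 higher and 195 to 230 lower. With the replicate block there were 275 DEGs (65 and 210); deviations of libraries with the same number correlated at -0.102 to 0.00749 across genes, so the numbers were not read as a pairing. Of 137 named DEGs, 43 kept the call in every alternative that tested them and 0 reversed. Over the alternatives, HLA class II had 7 to 12 members lower and 0 higher, NF-kB genes 7 to 12 lower, p53 targets and CDK inhibitors 11 to 18 lower and 1 to 5 higher, and DNA replication and mitosis genes 22 to 31 higher and 1 to 10 lower. Genes near 3 counts per library were limited by depth.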
